A study of Mus musculus with 714 samples.

Results

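The genes of the extracellular matrix, of the proteases that cut it and of the integrins that hold cells to it were followed through the growth of the mouse uterine epithelium. Members were chosen by a rule on their names, which was set with earlier results of these data known. They were the rows of the count table whose names begin with Col and a digit, Lama, Lamb, Lamc, Mmp, Timp, Adam, Itga, Itgb, Fbln, Fbn or Thbs, together with Dcn, Lum, Sparc, Postn, Fn1, Vim, Mgp, Nid1 and Nid2. Of the 12479 gene rows, this took 61 with at least 20 counts over all cells and 63 with fewer. By role they are 13 integrin alpha chains, 4 integrin beta chains, 17 chains of the basement membrane, 15 matrix metalloproteinases, 4 inhibitors of them, 11 ADAM and 17 ADAMTS proteins, 7 fibrillar and 17 other collagens, 3 thrombospondins and 11 proteins of stromal matrix or mesenchymal cells. The other 5 match the rule only by name, among them Col4a3bp, which codes for a lipid transfer protein.

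The cells were taken from uteri of ICR mice on postnatal day (pnd) 0, 7, 14, 28 and 56 and had been sorted for CD326, the epithelial surface protein EpCAM. No treatment, mutation, animal or pooling is named in the labels, so each age is 1 sample made of many cells. Their RNA was copied by the CEL-seq method, in which transcripts are amplified by in vitro transcription and read at the 3′ end. Cell titles are numbered, and blocks of 96 numbers, called runs here, each hold cells of 1 age, so age and run cannot be told apart. Runs 1 and 2 hold 88 and 85 cells of pnd0, runs 5, 6 and 10 hold 88, 87 and 92 of pnd7, runs 3, 4 and 7 hold 70, 24 and 79 of pnd14, run 9 holds 56 of pnd28 and run 8 holds 45 of pnd56.

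Epithelial cells stand on a basement membrane, a sheet of laminin, type IV collagen and nidogen, and grip it through integrins, receptors built from an alpha and a beta chain. Matrix metalloproteinases, ADAM and ADAMTS proteases cut matrix and surface proteins, and TIMP proteins inhibit metalloproteinases. Fibrillar collagens, decorin and vimentin are known mainly from the stroma and muscle beneath the epithelium, and remodelling of the matrix accompanies the budding of uterine glands after birth.

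Levels are given in CPM, a gene's summed counts in the cells of an age per 1000000 of that age's counts. In such sums, fewer cells that carry a gene and less RNA per cell cannot be told apart. Square brackets give 95% intervals that cover counting error only, and no difference between ages has a replicate check. The ages sum to 582615, 732957, 354047, 96248 and 81894 counts, with medians of 3037, 2492, 1782, 1600 and 1670 counts per cell. Of the epithelial markers, Krt18, a keratin of simple epithelia, was the most widely counted. It was found in 98.8, 98.9, 91.9, 78.6 and 91.1% of cells from pnd0 to pnd56. Epcam itself was counted in 50.9, 44.2, 34.1, 28.6 and 53.3% of cells, and Cdh1 in 39.3, 43.4, 32.4, 32.1 and 48.9%.

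Some cells of the sort carried muscle genes, and members are therefore also given without them. A cell was called muscle-marked when its counts of Cnn1, Des, Myl9 and Mylk, genes of the contractile apparatus, summed to 5 or more. This marked 2, 8, 39, 8 and 1 cells from pnd0 to pnd56, which is 22.5% of the pnd14 cells and 14.3% of the pnd28 cells. At pnd14 the marked cells were 20%, 16.7% and 26.6% of the cells in runs 3, 4 and 7. Most still held keratin, since Krt18 was counted in 71.8% of marked pnd14 cells against 97.8% of the others. The gate rested mainly on Myl9, counted in 97.4% of marked pnd14 cells and in 16.4% of the others. Cnn1, Des and Mylk were counted in 33.3, 38.5 and 33.3% of the marked ones. At pnd7 Myl9 was in 100% of marked cells, Des in 12.5% and Cnn1 and Mylk in 0%. Those pnd7 cells had Krt18 in 100% and Epcam in 75%. The name muscle-marked thus stands for the gate and not for a cell type. The epithelium list, with a row for each of its 8 genes, summed to 8548, 7984, 11047, 7459.9 and 7998 CPM over the 5 ages. Cldn4 was at 0 from pnd14 on and Krt19 at pnd56. At pnd14 the epithelium list summed to 7110 CPM in marked cells against 12295 CPM in the others. Epcam was counted there in 25.6% of marked cells against 36.6% of the others. The endothelium list, 7 of 9 with a row, summed to 80.7, 77.8, 234.4, 51.9 and 109.9 CPM, and the immune list, 3 of 10 with a row, to 1.72, 4.09, 8.47, 103.9 and 48.8 CPM. The erythroid list, 3 of 6 with a row, was high at birth alone, at 13436, 311, 262.7, 166.2 and 0 CPM, and the mesothelium list, 2 of 5 with a row, stood at 151.04, 64.1, 268, 176.6 and 48.8 CPM. What part these cells have in the member levels was not tested.

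The members together took a larger share of counts at the later ages. Their summed level was 5057, 4798, 6482, 11273 and 10489 CPM at pnd0, pnd7, pnd14, pnd28 and pnd56. Without the muscle-marked cells it was 5061, 4751, 5468, 10214 and 10221 CPM. Set against the age before it, the log2 ratio of the sum was −0.08 [−0.15, −0.00] at pnd7, 0.43 [0.36, 0.51] at pnd14, 0.80 [0.69, 0.90] at pnd28 and −0.10 [−0.23, 0.03] at pnd56. Without the muscle-marked cells the ratio of pnd14 over pnd7 was 0.20. Counts were concentrated in few genes. Every member had at least 1 count, 24 had 100 or more, 37 had 20 to 99, 36 had 4 to 19 and 27 had 1 to 3. The 63 members with under 20 counts held 374 of the 10702 member counts.

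**Figure D1:**
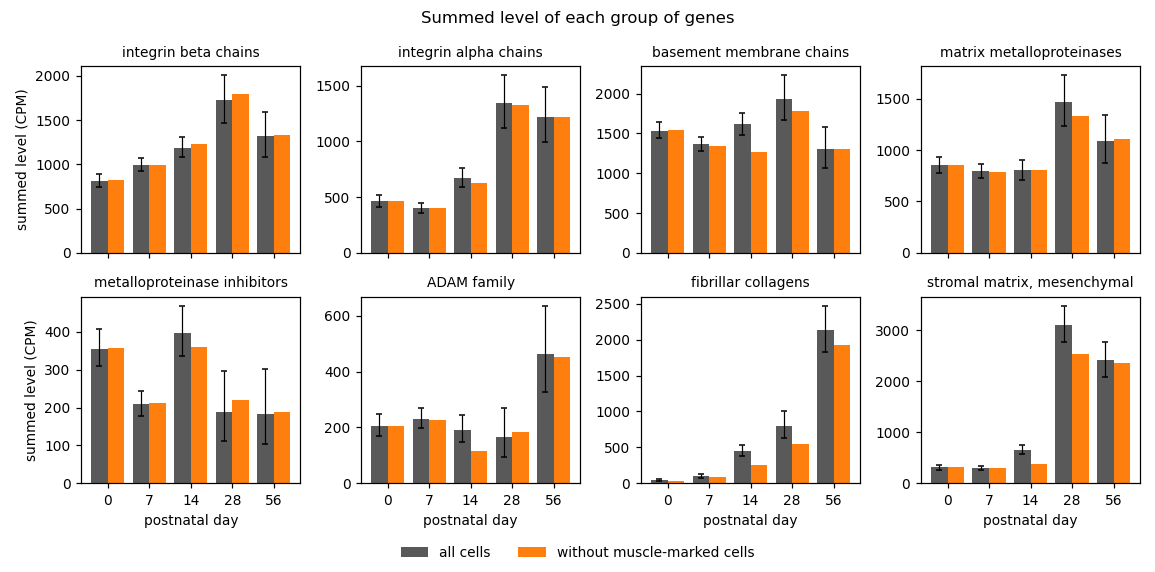
Summed level in CPM (vertical axis) of 8 groups of genes at the 5 ages (horizontal axis, postnatal day). Grey bars with 95% Poisson intervals are all cells, and orange bars are the cells that were not muscle-marked. The integrin chains and the fibrillar collagens stood higher at the 3 later ages than at pnd0, and the gap between the bars was wide at pnd14 for the fibrillar collagens, at 451.9 CPM in all cells and 249.2 CPM without the muscle-marked cells.

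Integrin genes were led by Itgb4 and Itga6, whose chains pair into the laminin receptor of hemidesmosomes, the rivets between epithelium and basement membrane. Itgb4 stood at 538.9, 660.3, 839, 1329.9 and 1087 CPM from pnd0 to pnd56 and was the member with the most counts, 1312. It was lowest at pnd0 and highest at pnd28, at 1329.9 CPM [1109.5, 1581]. In runs, Itgb4 stood at 592.4 and 484 CPM at pnd0, 751.5, 706.2 and 549.1 CPM at pnd7 and 710.3, 979.7 and 892.1 CPM at pnd14, so neighbouring ages overlapped up to pnd14, and the single run of pnd28 lay above all of them. The log2 ratio of Itgb4 at pnd28 over pnd14 was 0.66 [0.35, 0.97], and without the muscle-marked cells it was 0.61.

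Itga6 followed a like course, with 257.5, 201.9, 381, 872.7 and 512.9 CPM over the 5 ages. Its pnd14 runs, at 363, 229.6 and 462.3 CPM, all lay above the pnd7 runs, at 217.6, 160.7 and 218.2 CPM. At pnd28 Itga6 was 2.29-fold higher than at pnd14, with a log2 ratio of 1.19 [0.78, 1.60], or 1.31 once the muscle-marked cells were left out. Itga6 at pnd56 lay below pnd28 with −0.77 [−1.34, −0.22]. The share of cells with Itga6 moved the same way. With every cell thinned to 1500 counts, which leaves 33 cells at pnd28 and 25 at pnd56, Itga6 was found in 28.05, 22.8, 29.2, 45.5 and 40% of cells from pnd0 to pnd56. At that depth Itgb4 was found in 35.4, 41.7, 46.02, 42.4 and 60%, which was no larger at pnd28 than at pnd14.

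The other integrin chains took separate courses. Itgav, the alpha chain of receptors for vitronectin and fibronectin, stood at 102.98, 92.8, 200.5, 281 and 537.3 CPM, highest at pnd56. Its log2 ratio was 1.11 [0.61, 1.61] at pnd14 over pnd7, which is 0.65 without the muscle-marked cells, and 0.94 [0.21, 1.69] at pnd56 over pnd28. Itgb1, the beta chain shared by most matrix receptors, was nearly level at 200.8, 246.9, 228.8, 218.2 and 195.4 CPM, and each of its 4 neighbouring ratios had an interval that includes no difference. Itgb5, a partner of Itgav, stood at 72.1, 84.6, 121.5, 155.8 and 24.4 CPM, with 2 counts at pnd56. Itga3, the alpha chain of another laminin receptor, was at 70.4, 54.6, 39.5, 41.6 and 0 CPM, highest at birth and without a count among 45 pnd56 cells. A count of 0 at pnd56 allows a level of up to 36.6 CPM.

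**Figure D2:**
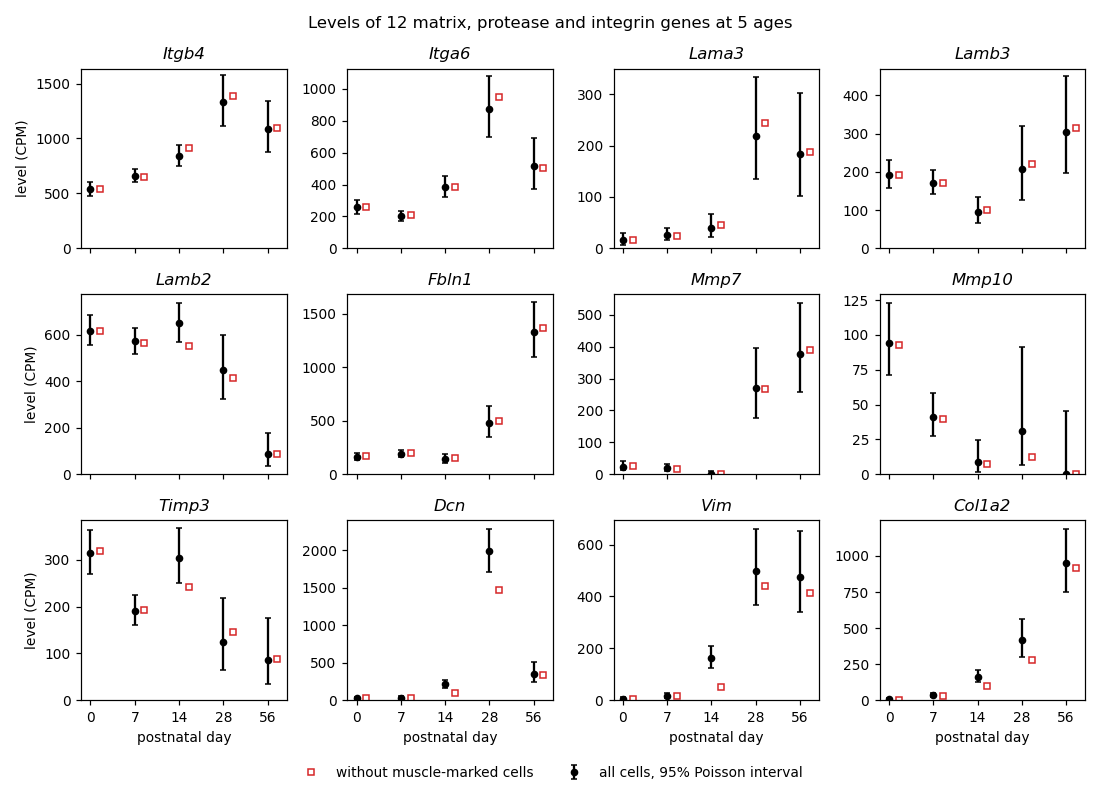
Level in CPM (vertical axes, each from 0) of 12 members at the 5 ages (horizontal axes, postnatal day). Black points with 95% Poisson intervals are all cells, and open red squares are the cells that were not muscle-marked. Itgb4, Itga6, Lama3, Fbln1 and Mmp7 stood higher at pnd28 than at pnd14 in both sets of cells, and Lamb2 was lowest at pnd56 at 85.5 CPM.

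The laminins of the basement membrane differed by chain. Lama3 and Lamb3 code for chains of the laminin that Itga6 and Itgb4 bind. Lama3 stood at 15.4, 25.9, 39.5, 218.2 and 183.2 CPM, low through pnd14 and higher at both later ages. Its log2 ratio at pnd28 over pnd14 was 2.46 [1.42, 3.55], 5.52-fold, and stood at 3.87 without run 7. Lama3 was found in 24.2% of pnd28 cells against 3.54% of pnd14 cells at equal depth. Lamb3 stood at 192.2, 171.9, 96.03, 207.8 and 305 CPM, with a low point at pnd14. At pnd28 over pnd14 its log2 ratio was 1.11 [0.24, 1.95], but 0.73 with its largest cell left out, 0.9999 without run 4 and 0.38 at equal depth.

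Lamb2, a beta chain found in many mature basement membranes, was the most counted laminin with 1060 counts. It stood at 618, 573.02, 649.6, 446.8 and 85.5 CPM, within a narrow range through pnd14 and far lower in the adult. Lamb2 had 85.5 CPM at pnd56 against 446.8 CPM at pnd28, a log2 ratio of −2.39 [−3.78, −1.22] and −2.24 without the muscle-marked cells, or −4.30 at equal depth. Lamb2 was counted in 8.89% of pnd56 cells against 26.8% of pnd28 cells, and in 4% against 30.3% at equal depth. The alternative beta chain Lamb1 stayed closer to level, at 266.04, 184.2, 135.6, 228.6 and 195.4 CPM. Usp19 lies within 2 kb of Lamb2 at its 3′ end on the same strand.

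Laminin alpha chains other than Lama3 were rare. Lama5, the alpha chain of mature epithelial basement membranes, stood at 51.5, 21.8, 5.65, 0 and 0 CPM. It was highest at birth, where 1 cell held 12 of its 30 counts, and Adrm1, with 2485 counts, lies at its 3′ end. Lama4, a chain of vessel and muscle basement membranes, had 35 of its 40 counts at pnd14, 33 of them in muscle-marked cells. The gamma chain Lamc1 stood at 37.8, 35.5, 28.2, 0 and 36.6 CPM.

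Nidogen and type IV collagen, which link and frame the laminin sheet, were present at all ages. Nid2 stood at 151.04, 167.8, 209.01, 281 and 256.4 CPM, highest at pnd28, and each of its 4 neighbouring ratios had an interval that includes no difference. Col4a2 stood at 166.5, 130.98, 274, 145.5 and 85.5 CPM, highest at pnd14. Without the muscle-marked cells its pnd14 level was 159.96 CPM, and the log2 ratio over pnd7 was 0.34 in place of 1.06. Col4a5 stood at 13.7, 36.8, 14.1, 83.1 and 0 CPM, and 1 run decided its ratio at pnd7 over pnd0, which was 1.42 and stood at 0.06 without run 5 and 0.92 with its largest cell left out. As a group the 17 basement membrane chains summed to 1536, 1368, 1613, 1933 and 1307 CPM, and to 1540.2, 1348, 1265, 1779 and 1306 CPM without the muscle-marked cells.

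Among the matrix metalloproteinases, a pair of secreted proteases was highest at opposite ends of the series. Mmp10, or stromelysin 2, was highest in newborn cells and Mmp7, or matrilysin, at pnd28 and pnd56. Their promoters are shown because both genes lie in the protease cluster of chromosome 9 and both sequences hold the letters of an activator protein 1 motif at the same distance from the start. The Mmp10 promoter lies at chr9:7502092-7502391 and the Mmp7 promoter at chr9:7691840-7692139, both on the plus strand of GRCm38.p6, from RefSeq. Each runs from 250 bases before the first listed start to 50 after it. Capitals mark TGAGTCA, which begins 63 bases before the start in both, and TATAAA, which begins 29 bases before it in Mmp10 and 26 bases before it in Mmp7, with a further copy upstream in Mmp7.
Mmp10: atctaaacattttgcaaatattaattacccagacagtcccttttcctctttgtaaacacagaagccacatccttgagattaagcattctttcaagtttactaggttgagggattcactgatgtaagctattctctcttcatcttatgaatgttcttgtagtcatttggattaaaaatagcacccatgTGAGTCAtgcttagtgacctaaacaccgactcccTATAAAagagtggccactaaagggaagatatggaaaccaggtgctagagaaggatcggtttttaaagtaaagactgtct
Mmp7: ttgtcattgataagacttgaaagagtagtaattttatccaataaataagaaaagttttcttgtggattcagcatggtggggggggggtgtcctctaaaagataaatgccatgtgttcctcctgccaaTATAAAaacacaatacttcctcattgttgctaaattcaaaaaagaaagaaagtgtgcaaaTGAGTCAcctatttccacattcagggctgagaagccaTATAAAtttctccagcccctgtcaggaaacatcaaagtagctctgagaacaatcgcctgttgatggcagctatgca
The motif was searched as TGANTCA, which reads alike on both strands apart from its middle base. TATAAA was searched on both strands. TGANTCA was present in 7.93% of the 27025 listed promoters of this length and in 7 of the 84 member promoters with an entry, 8.33%, those of Adam29, Itga9, Itgax, Mmp10, Mmp1b, Mmp3 and Mmp7. TATAAA was present on either strand in 14.2% of all and in 14 of 84, 16.7%. A match is a description of these letters and not of a bound site.

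Mmp10 stood at 94.4, 40.9, 8.47, 31.2 and 0 CPM from pnd0 to pnd56, and was counted in 32 pnd0 cells. The pnd0 runs, at 71.1 and 118.4 CPM, lay above the pnd7 runs, at 20.5, 48.7 and 52.8 CPM, which lay above the pnd14 runs, at 14.8, 15.3 and 0 CPM. The log2 ratio was −1.21 [−1.90, −0.54] at pnd7 over pnd0, and −0.89 and −0.80 without runs 5 and 2. At pnd14 over pnd7 it was −2.27 [−4.63, −0.59], from 3 counts at pnd14, with −3.16 without run 3, −1.45 without run 7, −3.85 with its largest cell left out and −1.49 at equal depth. Mmp10 thus stood lower at each step through pnd14, and pnd28 and pnd56 had 3 and 0 counts.

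Mmp7, known from glandular and luminal epithelia, stood at 24.03, 19.1, 0, 270.1 and 379 CPM. No pnd14 cell held a count, which allows a level of up to 8.47 CPM. At pnd28, Mmp7 stood 31.9-fold above the 8.47 CPM allowed at pnd14, a bound of 4.99 on the log2 scale. This bound takes the pnd28 counts without their counting error, so the true ratio may be lower. It was 4.30 and 4.17 without runs 3 and 7, and 4.14 with its largest cell left out. That cell held 12 of the 26 pnd28 counts, and the pnd56 counts were spread over 10 cells with at most 7 in a cell. At equal depth Mmp7 was found in 2.44, 2.76, 0, 12.1 and 20% of cells from pnd0 to pnd56.

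**Figure D3:**
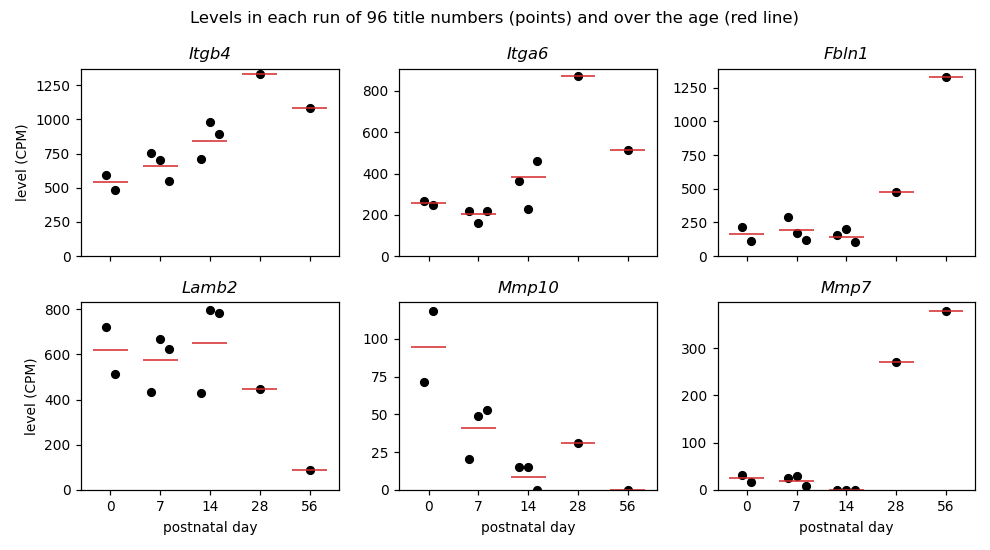
Level in CPM (vertical axes, each from 0) of 6 members in each run of 96 title numbers (black points) and over all cells of an age (red lines), at the 5 ages (horizontal axes, postnatal day). The pnd0 runs of Mmp10 all lie above its pnd7 runs, the pnd28 and pnd56 ages have a single run each, and Fbln1 at pnd56 stands at 1331 CPM, above every other run.

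Mmp2, a gelatinase known mainly from stromal cells, had no count at pnd0 and stood at 0, 38.2, 53.7, 519.5 and 48.8 CPM over the 5 ages. At pnd28, 1 cell held 28 of its 50 counts, and this cell also held 16 of 40 Col1a2 and 13 of 30 Col3a1 counts of that age. Without that cell the log2 ratio of Mmp2 was 2.13 at pnd28 over pnd14, in place of 3.28 [2.49, 4.12]. At pnd56 over pnd28 it was −2.27, in place of −3.41 [−5.34, −1.97]. Mmp11, or stromelysin 3, stood at 46.3, 21.8, 5.65, 10.4 and 0 CPM, highest at birth. Chchd10, with 1219 counts, overlaps Mmp11 on the other strand.

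The membrane-anchored metalloproteinases were the most counted of the family. Mmp14, an activator of Mmp2 at the cell surface, stood at 180.2, 185.6, 214.7, 187.02 and 256.4 CPM. Mmp15 stood at 236.9, 203.3, 353, 249.4 and 158.7 CPM, highest at pnd14, with a log2 ratio over pnd7 of 0.80. Mmp24 stood at 144.2, 166.4, 112.98, 103.9 and 195.4 CPM, and Mmp19, a secreted member, at 87.5, 90.05, 48.02, 93.5 and 48.8 CPM. Mmp23 had 9 and 16 counts at pnd0 and pnd7 and none later, with all pnd0 counts in 1 cell. The other 6 members of the family had 12 counts or fewer each. Mrpl52, with 1525 counts, lies within 2 kb of Mmp14 on the same strand, though not at its 3′ end.

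Of the inhibitors, Timp3, which binds to the matrix, was most counted, at 314, 191.01, 305, 124.7 and 85.5 CPM. Its pnd7 runs, at 188.9, 253.2 and 147.8 CPM, all lay below the pnd0 runs, at 322 and 306 CPM, with a log2 ratio of −0.72 [−1.05, −0.39]. At pnd28, Timp3 was lower than at pnd14 with −1.29 [−2.29, −0.43], but −0.73 without the muscle-marked cells, which held 39.8% of its pnd14 counts. Timp1 stood at 37.8, 17.7, 33.9, 62.3 and 97.7 CPM, with at most 22 counts at an age. Timp4 was counted at pnd14 only, with 21 counts in 5 cells, of which 1 cell held 11. Of these counts 19 lay in run 3. None of these 5 cells had a count of Ovgp1, the oviductal glycoprotein found in 58 pnd14 cells. Timp1, Timp3 and Timp4 overlap the genes Syn1, Syn3 and Syn2 on the other strand, and without strand, reads of such pairs cannot be told apart.

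ADAM proteases cut proteins off the cell surface, and 2 of them passed 100 counts. Adam15 stood at 90.97, 94.1, 87.6, 83.1 and 232.01 CPM, and its log2 ratio at pnd56 over pnd28 was 1.48 [0.22, 2.88], or 2.72 at equal depth. Adam10, a protease that processes Notch receptors, stood at 72.1, 64.1, 39.5, 62.3 and 146.5 CPM. At pnd14, 11 of the 14 Adam10 counts and 20 of the 31 Adam15 counts lay in muscle-marked cells, which held 24.1% of all counts of that age. Of these, 1 cell held 7 of the Adam10 counts, and 1 cell held 7 of the Adam15 counts. The 17 ADAMTS members held 278 counts in all and stood at 175.1, 141.9, 129.9, 176.6 and 109.9 CPM in sum. Adamts17 and Adamts10, the most counted, stood at 42.9, 23.2, 8.47, 41.6 and 0 CPM and 42.9, 15.01, 25.4, 31.2 and 0 CPM. For Adamts10 the log2 ratio at pnd7 over pnd0 of −1.52 was −0.48, −0.93 and −3.27 without runs 1, 5 and 10.

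Fbln1, whose product fibulin 1 binds laminin, nidogen and elastic fibres, was highest in the adult cells. It stood at 164.8, 191.01, 141.2, 477.9 and 1331 CPM over the 5 ages, with 1331 CPM [1093, 1606] at pnd56. The log2 ratio was 1.76 [1.15, 2.37] at pnd28 over pnd14, or 2.48 at equal depth, and 1.48 [0.97, 2.01] at pnd56 over pnd28. Unlike the collagens, the counts of Fbln1 were spread over many cells. It was counted in 19.7, 21.3, 10.98, 32.1 and 68.9% of cells from pnd0 to pnd56 and in 12.2, 15.7, 7.96, 36.4 and 80% at equal depth, and no pnd56 cell held more than 7 of its counts.

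At pnd56, Fbln1 was found in cells with and without a count of Epcam, the gene of the sorted protein. It was counted in 19 of 24 cells with an Epcam count and in 12 of 21 cells with none, at medians of 1942 and 1383 counts per cell. Its level was 1579 CPM in cells with Epcam and 1009 CPM in cells without. The single muscle-marked cell of pnd56 had none, and at pnd28 Fbln1 was counted in 25% of muscle-marked and 33.3% of other cells. At the early ages it varied between runs, with 213.3 and 114.9 CPM at pnd0, 291.6, 170.5 and 119.7 CPM at pnd7 and 155.4, 199.005 and 104.2 CPM at pnd14.

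Dcn, the gene of the small proteoglycan decorin that coats collagen fibrils, set pnd28 apart. It stood at 25.7, 32.7, 211.8, 1984 and 354 CPM over the 5 ages. The log2 ratio was 2.69 [2.01, 3.42] at pnd14 over pnd7, 3.23 [2.84, 3.63] at pnd28 over pnd14, which is 3.86 without the muscle-marked cells, and −2.49 [−3.10, −1.92] at pnd56 over pnd28. At pnd28 it was counted in 33 of 56 cells, 58.9%, and in 54.5% at equal depth, against 7.96% at pnd14 and 8% at pnd56.

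Those pnd28 cells included cells with and without muscle and epithelial genes. Dcn was counted in 62.5% of muscle-marked and 58.3% of other pnd28 cells, in 8 of 16 cells with an Epcam count and in 25 of 40 with none. Its level was 4999 CPM in muscle-marked cells against 1463 CPM in the other cells, a log2 ratio of 1.77 [1.33, 2.21]. The cell with the most counts held 50 of its counts and had 3 Epcam and 13 Krt18 counts. Whether free RNA in the cell suspension gave part of this share was not tested.

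Fibrillar collagens and vimentin were nearly absent at birth and stood higher later, with counts held by few cells. Col1a2, a chain of type I collagen, stood at 5.15, 35.5, 160.996, 415.6 and 952.5 CPM. Col3a1, the chain of type III collagen, stood at 3.43, 13.6, 144.05, 312 and 769 CPM. Vim, the intermediate filament of mesenchymal cells, stood at 3.43, 15.01, 160.996, 498.7 and 476.2 CPM, and Col1a1 at 1.72, 21.8, 87.6, 41.6 and 219.8 CPM. The 7 fibrillar collagens summed to 39.5, 98.2, 451.9, 800.02 and 2137 CPM, and to 33.2, 91.2, 249.2, 548.5 and 1921 CPM without the muscle-marked cells.

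At pnd56, 1 cell decided the collagen levels. It held 72 of the 78 Col1a2, 54 of the 63 Col3a1, 15 of the 18 Col1a1 and 24 of the 29 Dcn counts, and 29.1% of all member counts of that age. This cell had 4509 counts in all, none of a muscle gene of the gate or of Epcam, and 2 of Krt18. Another cell held 28 of the 39 Vim counts. Without the cell that held the collagens, the log2 ratio at pnd56 over pnd28 was −2.42 for Col1a2, −1.42 for Col3a1 and −0.10 for Col1a1. All cells gave 1.20, 1.30 and 2.40, and no pnd28 cell was left out. At equal depth Col1a2 had 0.52 and Col3a1 0.99. None of the 24 pnd56 cells with an Epcam count held a count of Col1a2, Col3a1 or Vim. This split did not hold at pnd28. There Col1a2, Col3a1 and Vim were counted in 1, 3 and 3 of 16 cells with an Epcam count. In the 40 cells with none they were counted in 6, 4 and 8.

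The 5 genes Col1a1, Col1a2, Col3a1, Dcn and Vim together show how far this concentration went. Their summed level was 39.5, 118.7, 765, 3252 and 2772 CPM over the 5 ages, and 15.9, 78.5, 509.5, 1617 and 94.7 CPM without the 3 cells of each age that held the most. They were counted in 6.36%, 13.9%, 31.2%, 69.6% and 15.6% of cells. Of the 10 stroma markers that are not members, 7 have a row, and these summed to 681, 634.4, 1698, 1527 and 561.7 CPM, of which Gsn gave the larger part at each age. At pnd28, Pdgfrb, Hand2 and Dpt were at 0, and at pnd56 Pdgfrb, Hoxa11 and Hand2 were at 0. Besides Gsn, Thy1, Cd34 and Hoxa11 stood at 259.7, 31.2 and 10.4 CPM at pnd28. At pnd56, Thy1, Cd34 and Dpt stood at 12.2, 73.3 and 122.1 CPM. The part of stromal cells in the collagen, Dcn and Vim levels was not tested.

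**Figure D4:**
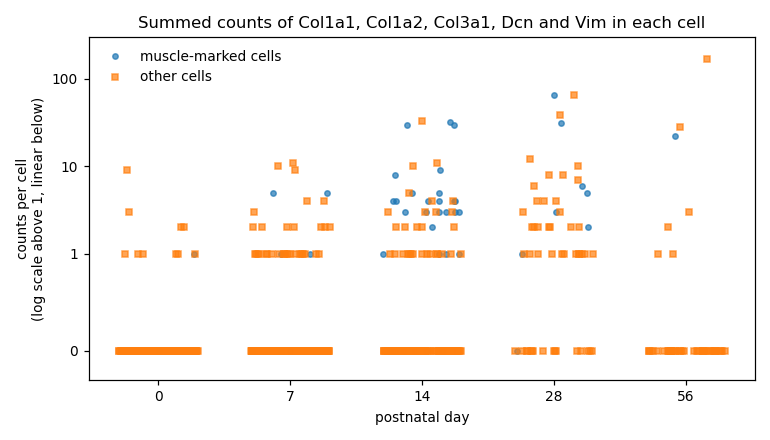
Summed counts of Col1a1, Col1a2, Col3a1, Dcn and Vim in each cell (vertical axis, linear from 0 to 1 and logarithmic above) at the 5 ages (horizontal axis, postnatal day), with blue circles for muscle-marked cells and orange squares for the other cells. A single pnd56 cell stands at 170 counts, 74.9% of that age's sum, while the pnd28 counts lie in 39 of 56 cells.

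Fn1, the gene of fibronectin, and both chains of type IX collagen with 20 counts or more stood highest before pnd28. Fn1 stood at 85.8, 38.2, 59.3, 0 and 0 CPM, with no count at either late age. Its log2 ratio at pnd7 over pnd0 was −1.17 [−1.89, −0.47], and −1.93, −0.92 and −0.88 without runs 5, 6 and 10, −1.80 with its largest cell left out and −2.16 at equal depth. Col9a2, a chain of the fibril-associated type IX collagen, stood at 108.1, 57.3, 76.3, 10.4 and 0 CPM, with 1 count at pnd28. Col9a3 of the same collagen stood at 17.2, 31.4, 2.82, 0 and 0 CPM. Col7a1, the anchoring fibril collagen beneath hemidesmosomes, was instead highest at pnd28, at 0, 5.46, 14.1, 124.7 and 24.4 CPM, with 12 counts in 7 pnd28 cells, none of them muscle-marked.

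The thrombospondins split. Thbs3 stood at 84.1, 51.8, 22.6, 20.8 and 0 CPM, highest at birth, and Thbs1 at 6.87, 5.46, 50.8, 93.5 and 12.2 CPM, highest at pnd28. Mtx1, with 766 counts, overlaps the 3′ end of Thbs3 on the other strand, and the sources used here do not say whether strand was used in counting. In all, 28 of the 61 members with at least 20 counts have a protein-coding neighbour within 2 kb, 23 of them at the 3′ end.

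The comparison of pnd7 with pnd0 covers the first week after birth. Measured members are those with 20 or more counts summed over the pair of ages, and a difference is counted from 2-fold upwards. At pnd7, 4 of 44 measured members were at least 2-fold higher than at pnd0, where the share over all measured rows was 4.94%, and 6 were at least 2-fold lower, where it was 7.61%. The median log2 ratio was −0.10 over the members and −0.03 over all rows. The members at least 2-fold higher were Mmp2, Col1a2, Col4a5 and Adam11, and the lower ones Adamts10, Lama5, Mmp10, Fn1, Timp1 and Mmp11.

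Leaving out 1 run or cell moved most of these ratios. That of Mmp2 stayed past 2-fold, and so did that of Col1a2 unless run 10 was left out. The bound of Mmp2, 2.89, was 1.87, 1.91 and 1.96 without runs 1, 2 and 10, 2.09 with its largest cell left out and 1.78 at equal depth. For Col1a2 the ratio was 2.78 [1.08, 5.15], or 1.76 without run 1. With run 2 left out, pnd0 has no count and Col1a2 a bound of 1.80. Run 10 holds 23 of the pnd7 counts of Col1a2, and without it too few are left for a ratio. Lama5, Timp1 and Mmp11 came under 2-fold, as did Col4a5, Mmp10, Fn1 and Adamts10 described above. For Lama5 the ratio was −1.24 [−2.21, −0.32] and −0.48 without run 2, or −0.51 with its largest cell left out. For Timp1, a ratio of −1.09 [−2.20, −0.04] was −0.24 and −0.86 without runs 1 and 6, −0.45 with its largest cell left out and −0.84 without the muscle-marked cells. For Mmp11, −1.09 [−2.08, −0.14] was −0.70 and −0.90 without runs 5 and 2, −0.93 with its largest cell left out, −0.99 without the muscle-marked cells and −0.37 at equal depth. Adam11, at 1.03 [−0.30, 2.53], had an interval that includes no difference.

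The step to pnd14 covers the time when glands begin to bud. At pnd14, 11 of 44 measured members were at least 2-fold higher, against 10.7% of all measured rows, and 5 were at least 2-fold lower, against 14.3%. The median log2 ratio was 0.45 over the members and −0.10 over all rows. Without the muscle-marked cells 7 of 39 members were at least 2-fold higher, against 9.92% of all measured rows, and the median was 0.14. The list of 10 smooth muscle markers, 6 with a row, summed to 68.7, 189.6, 2844, 1299 and 109.9 CPM over the 5 ages. Without the marked cells it summed to 41.9, 131.1, 226.9, 231.6 and 0 CPM. All 4 genes of the gate are in this list, so its fall without the marked cells follows from the gate and is no separate readout. The list's other rows, Lmod1 and Synpo2, had 6 counts each at pnd14.

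The 11 higher members were Lama4, Timp4, Vim, Col3a1, Dcn, Thbs1, Col1a2, Col1a1, Col16a1, Col4a2 and Itgav. Col3a1 had 144.05 CPM at pnd14 against 13.6 CPM at pnd7, so that its log2 ratio was 3.40 [2.41, 4.54], or 2.71 without the muscle-marked cells. Vim had 160.996 CPM at pnd14 against 15.01 CPM at pnd7, with 3.42 [2.48, 4.50], and 1.73 without those cells, 2.53 without run 3 and 2.78 with its largest cell left out. For Dcn, Col1a1 and Col16a1 the ratios of 2.69, 2.004 and 2.05 were 1.89, 1.04 and 1.06 without the marked cells. Thbs1 had 50.8 CPM at pnd14 against 5.46 CPM at pnd7, with 3.22 [1.62, 5.24], or 2.55 without them. At equal depth Col3a1, Col1a2 and Col1a1 had ratios of 2.39, 1.56 and 1.34.

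Run 10 of pnd7 held most of that age's fibrillar collagen counts, with Col1a2 at 8.21, 4.87 and 80.96 CPM in runs 5, 6 and 10. Without it the pnd14 ratios over pnd7 were 4.59 for Col1a2, 4.43 for Col3a1, 2.71 for Col1a1 and 3.76 for Dcn, in place of 2.18, 3.40, 2.004 and 2.69. Other runs that moved a ratio by over 1.5 times were run 7 for Col1a1, to 1.04, and runs 3 and 5 for Col16a1, to 1.33 and 2.88, which stood at 1.39 with its largest cell left out. Lama4 had no count at pnd7, a bound of 4.59 that was 3.74 and 3.89 without runs 3 and 10, 3.95 with its largest cell left out and 3.39 at equal depth, and without the muscle-marked cells it was too rare for a value. Timp4 had a bound of 3.86, and 4.53 and 3.15 without runs 7 and 10, 2.80 with its largest cell left out and 3.17 at equal depth. Without run 3, which holds 19 of its 21 counts, no ratio is given for Timp4. Col4a2 stood under 2-fold without run 3, 7 or 10, at 0.97, 0.78 and 0.83, and at 0.62 with its largest cell left out.

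The 5 lower members at pnd14 were Col9a3, Mmp10, Thbs3, Adamts17 and Col4a5, each with 8 or fewer pnd14 counts. Col9a3 had 1 count at pnd14 and a log2 ratio of −3.47 [−8.84, −0.85], with −2.65 without run 7, a bound of −1.20 without run 3, which holds that count, and a bound of −0.83 at equal depth. Thbs3 had 22.6 CPM at pnd14 against 51.8 CPM at pnd7, and all its pnd14 counts lay in run 7. Its ratio of −1.20 [−2.51, −0.08] was −0.50, −0.90 and −0.83 without runs 3, 4 and 10, −0.94 without the muscle-marked cells, −1.87 with its largest cell left out, −0.71 at equal depth, and a bound of −1.79 without run 7. Adamts17 and Col4a5, at −1.45 and −1.38, had intervals that include no difference.

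The comparison of pnd28 with pnd14 sets juvenile cells against those of the second week. At pnd28, 10 of 32 measured members were at least 2-fold higher than at pnd14, against 11.9% of all measured rows, and 4 were at least 2-fold lower, against 23.2%. The median log2 ratio was 0.45 over the members and −0.23 over all rows. Median-of-ratios scaling moves the median of all rows to −0.02 and that of the members to 0.66. It gives 12 members higher and 3 lower, and 15.7% and 18.7% of all rows. Without the muscle-marked cells 10 of 25 were higher and 3 lower, against 12.1% and 23.7% of all rows.

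The 10 higher members were Mmp7, Mmp2, Dcn, Lama3, Fbln1, Vim, Col1a2, Itga6, Col3a1 and Lamb3, which are laminin and integrin chains, proteases and genes of stromal matrix. Vim had a log2 ratio of 1.63 [1.05, 2.21], which was 3.07 without the muscle-marked cells, 2.52 without run 3 and 2.27 with its largest cell left out. Col1a2 and Col3a1, at 1.37 and 1.11, stood at 0.67 and 0.34 with the cell of their largest count left out. That cell was of pnd28, and no pnd14 cell was left out. Without run 4, Col3a1 stood at 0.88, and at equal depth Col1a2 and Col3a1 had 1.91 and 2.14. The lower members were Lama4, Col9a2, Timp3 and Col1a1. Lama4 had 1 count at pnd28 and a ratio of −3.25 [−8.59, −0.68], or −2.40 without run 3, −2.60 with its largest cell left out and −2.03 at equal depth. Col9a2, with 1 count, had −2.88 [−8.23, −0.27], or a bound of −0.22 at equal depth, and the interval of Col1a1, at −1.08, includes no difference.

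The comparison of pnd56 with pnd28 sets adult against juvenile cells and rests on the fewest counts. At pnd56, 5 of 23 measured members were at least 2-fold higher than at pnd28, against 14.8% of all measured rows, and 3 were at least 2-fold lower, against 16.5%. The median log2 ratio was −0.07 over the members and 0.06 over all rows. Higher were Fbln1, Adam15, Col1a1, Col1a2 and Col3a1, the last 3 in 1 cell as described above, and lower were Lamb2, Dcn and Mmp2. Without the largest cell of each gene 4 of 20 were higher and 6 lower, against 13.7% and 12.8% of all rows.

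The muscle-marked cells of pnd14 carried more matrix than the other cells of that age. Members summed to 9679 CPM in the 39 muscle-marked cells against 5468 CPM in the others, a log2 ratio of 0.82 [0.70, 0.95]. Within runs 3, 4 and 7 this ratio was 0.97 [0.76, 1.17], 1.40 [1.08, 1.72] and 0.50 [0.31, 0.68]. The gate uses none of the members, but the cells were chosen by genes of the same libraries, so the values are a description. Of 26 measured members 11 were at least 2-fold higher in muscle-marked cells, against 11.2% of all measured rows outside the gate, and 2 were at least 2-fold lower, against 16.7%. The median log2 ratio was 0.61 over the members and −0.04 over the rows. Run 3 decided much of the count, since without it 3 of 20 members were at least 2-fold higher, against 11.7% of the rows.

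Lama4 stood furthest apart, at 387.2 CPM in muscle-marked cells against 7.44 CPM in the other cells, a log2 ratio of 5.70 [3.73, 8.81], or 3.94 without run 3. Vim had 504.5 CPM in muscle-marked cells against 52.1 CPM in the other cells, with 3.28 [2.38, 4.26], and in each of runs 3, 4 and 7 it was higher in marked than in other cells, at 954.1 against 77.1 CPM, 564.97 against 37.8 CPM and 144.9 against 35.7 CPM. Dcn had 563.2 CPM in muscle-marked cells against 100.4 CPM in the other cells, with 2.49 [1.78, 3.22], but its runs differed. In run 3 all 11 Dcn counts lay outside the marked cells, in run 4 all 21 lay within them, and in run 7 the levels in marked against other cells were 652.2 against 142.6 CPM. Without run 4 the ratio of Dcn was 1.57.

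Of the other basement membrane chains, Col4a2 had 633.6 CPM in muscle-marked cells against 159.96 CPM in the other cells, a log2 ratio of 1.99 [1.38, 2.60], which rested on run 3. Its level in marked against other cells was 1113 against 57.9 CPM in run 3 and 362 against 329.9 CPM in run 7, and without run 3 the ratio was 0.66. Lamb2 differed less, with 962 CPM in muscle-marked cells against 550.6 CPM in the other cells and 0.81 [0.40, 1.20], and stood higher in the marked cells of each run, by log2 ratios of 0.68, 1.05 and 0.75 in runs 3, 4 and 7. The marked cells held 24.1% of all pnd14 counts, and they held 94.3% of the Lama4, 92.9% of the Col27a1, 78.6% of the Adam10, 75.4% of the Vim, 75% of the Col16a1 and 71.4% of the Postn counts. For Adam15, Col1a1, Dcn and Col4a2 this share was 64.5%, 64.5%, 64% and 55.7%. Postn codes for periostin, a protein of collagen-rich tissue. Single cells weigh here as well, with 21 of the 43 marked Vim counts and 13 of the 33 marked Lama4 counts in 1 cell each.

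Over all runs Itgb4 stood lower in the marked cells, at 610.1 CPM in muscle-marked cells against 911.4 CPM in the other cells, a log2 ratio of −0.58 [−1.04, −0.14], while the interval of Itga6, at −0.03 [−0.65, 0.56], includes no difference. For Itgb4 the runs did not share a direction, since the log2 ratio was −3.23 in run 3, 1.45 in run 4 and −0.80 in run 7. Mmp24 and Timp4 were the members at least 2-fold lower in the marked cells, with −1.97 [−4.31, −0.31] and −2.66 [−8.04, −0.02], from 3 and 1 counts there. At pnd28, members summed to 17392 CPM in the 8 muscle-marked cells against 10214 CPM in the other 48.

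**Figure D5:**
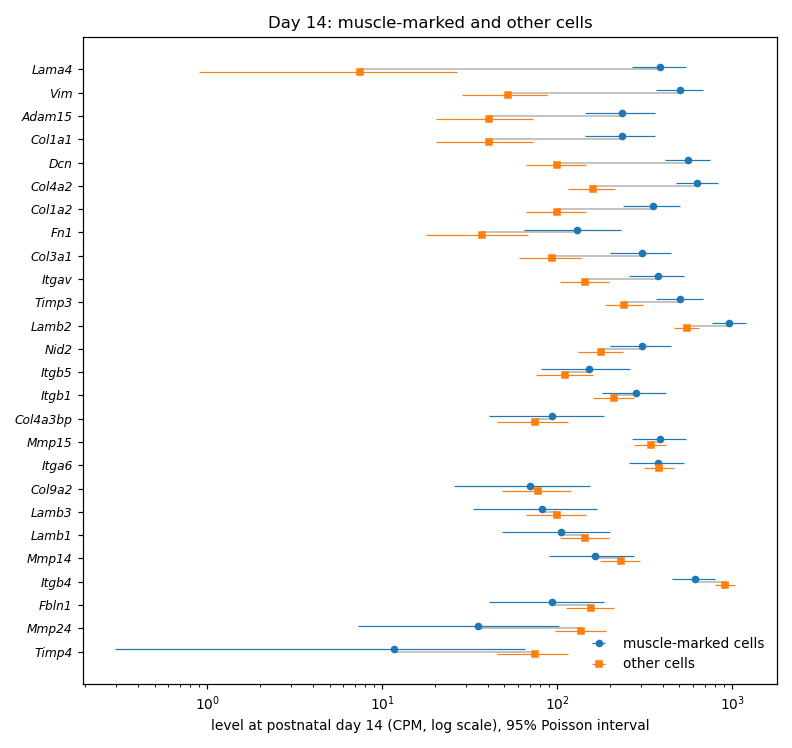
Level at pnd14 in CPM (horizontal axis, log scale) of the 26 members with at least 20 pnd14 counts (rows, ordered by ratio), in 39 muscle-marked cells (blue circles) and in the other cells (orange squares), with 95% Poisson intervals. Lama4 stands at 387.2 CPM in muscle-marked cells and 7.44 CPM in the other cells, while Itgb4, Mmp24 and Timp4 lie lower in muscle-marked cells with the runs pooled, and Itgb4 lies higher in those of run 4.

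Partners of these genes that are no members were read from 4 lists, with few measured genes each. Over all measured rows, 4.94%, 10.7%, 11.9% and 14.8% were at least 2-fold higher and 7.61%, 14.3%, 23.2% and 16.5% at least 2-fold lower at pnd7, pnd14, pnd28 and pnd56 than at the age before. Of 17 rows for integrin adaptors and hemidesmosome parts, 13, 13, 10 and 7 were measured in these comparisons, of which 1, 2, 0 and 1 were at least 2-fold higher and 1, 1, 1 and 1 lower. At pnd14, Dst, which codes for the linker between hemidesmosome and keratin, had 418.02 CPM at pnd14 against 170.5 CPM at pnd7, a log2 ratio of 1.29 [0.94, 1.65], and Cd9, a tetraspanin partner of integrins, had 1.28 [0.75, 1.80]. Plec, another linker, had −1.12 [−3.14, 0.48], but −0.30 without run 7, −0.47 without run 10, −0.42 with its largest cell left out and 0.36 at equal depth. At pnd28, Cd9 was lower than at pnd14 with −1.91 [−3.58, −0.62], or −1.13 at equal depth. At pnd56 Dst was lower than at pnd28 with −1.28 [−2.27, −0.37], or −1.92 at equal depth, and Cd151, the tetraspanin that binds laminin receptors, had 598.3 CPM at pnd56 against 228.6 CPM at pnd28 and 1.39 [0.64, 2.18], or 0.84 at equal depth. At pnd7 over pnd0, the ratio of Fermt1, 1.06 [−0.17, 2.45], was 0.18 and 0.46 without runs 10 and 1, and that of Kank1, −1.24 [−2.18, −0.35], was −0.75 and −0.85 without runs 5 and 1.

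Of the 14 plasminogen and other protease rows, 5, 5, 5 and 4 were measured. Htra1, a serine protease of the matrix, was lower at pnd7, with 75.04 CPM at pnd7 against 233.4 CPM at pnd0 and −1.64 [−2.12, −1.18]. Plat, the tissue plasminogen activator, was higher there with 1.70 [1.43, 1.99]. None of 5 passed 2-fold at pnd14 over pnd7 or at pnd28 over pnd14. At pnd56, Plat was lower, with 122.1 CPM at pnd56 against 654.6 CPM at pnd28 and −2.42 [−3.55, −1.45], and Ctsb, a lysosomal protease, had 1.12 [0.09, 2.21], or 0.77 with its largest cell left out.

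The 15 proteoglycan and basement membrane partner rows gave 6, 6, 4 and 2 measured genes over the 4 comparisons, of which 2, 1, 2 and 0 were at least 2-fold higher and 0, 1, 1 and 0 lower. Bgn, the gene of biglycan, was higher at pnd7 than at pnd0 with 4.76 [2.18, 10.10], or 2.19 without run 2 and 2.31 at equal depth. This ratio sets 34 counts at pnd7 against 1 count at pnd0. At pnd14 over pnd7 Bgn had 1.66 [1.01, 2.33], but 0.58 without the muscle-marked cells and 0.56 without run 3. At pnd28 over pnd14 it had −1.24 [−2.75, −0.02], but −0.87 without those cells and −0.14 without that run. Sdc2, a syndecan, had 2.10 [0.88, 3.34] at pnd28 over pnd14, but 0.90 without the muscle-marked cells and 0.65 with its largest cell left out. Its earlier ratios, 1.23 [0.43, 2.09] at pnd7 and −1.09 [−2.13, −0.17] at pnd14, came under 2-fold without run 10, at 0.96 and −0.83, and also without run 1 at pnd7, at 0.92, and without run 3 at pnd14, at −0.66. Sdc1, the epithelial syndecan, had 301.3 CPM at pnd28 against 104.5 CPM at pnd14, with 1.53 [0.77, 2.27].

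Of the 14 collagen-processing rows, 8, 7, 5 and 3 were measured, of which 0, 2, 1 and 0 were at least 2-fold higher and 1, 0, 1 and 0 lower. Plod2 was lower at pnd7 than at pnd0 with −2.33 [−4.37, −0.70], or −1.31 without run 2. Leprel1, a prolyl hydroxylase of collagen, had 274 CPM at pnd14 against 110.5 CPM at pnd7, with 1.31 [0.87, 1.75], or 0.86 without run 3, and was lower at pnd28 than at pnd14 with −2.72 [−4.63, −1.32]. Lepre1 had 1.17 [−0.08, 2.43] at pnd14 over pnd7, but 0.61 without the muscle-marked cells, 0.58 without run 10 and 0.36 at equal depth. Plod3 had 1.22 [0.04, 2.33] at pnd28 over pnd14, or 0.40 at equal depth.

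Col15a1, a collagen of the basement membrane zone, stood at 3.43, 1.36, 22.6, 103.9 and 158.7 CPM, with 12 of its 13 pnd56 counts in the cell that held the collagens. Nid1, the other nidogen, stood at 1.72, 1.36, 25.4, 93.5 and 0 CPM. Col5a1, a fibrillar collagen that starts fibrils, stood at 8.58, 10.9, 19.8, 10.4 and 183.2 CPM, with 8 of its 15 pnd56 counts in 1 cell. Sparc, a collagen-binding protein, stood at 22.3, 5.46, 22.6, 0 and 97.7 CPM, and Postn at 0, 5.46, 39.5, 51.9 and 61.1 CPM. Adamts13, Adamts6, Adam11, Col23a1 and Itga2b had no count at pnd28 or pnd56, where a count of 0 allows up to 31.2 and 36.6 CPM. Adam17, the protease that sheds many growth factors, stood at 20.6, 20.5, 31.1, 20.8 and 48.8 CPM, and Adamtsl4 at 20.6, 15.01, 11.3, 41.6 and 73.3 CPM. Col4a3bp stood at 34.3, 42.3, 79.1, 51.9 and 12.2 CPM.

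Members below 20 counts were too rare for a ratio and included nearly all integrin chains of blood cells. Itgae had 17 counts in all, Itgam 15, Itgax 7, Itgb2 5 and Itgal 3. Itga9 had 17 counts, Lum 14, Fbln2 13 and Mmp16 12, and Timp2 had 2. The 11 such ADAMTS and 11 such collagens outside the fibrillar class had at most 19 and 8 counts each.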

How the data were processed

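The deposited table holds counts per gene and cell for 714 cells, 173, 267, 173, 56 and 45 from pnd0 to pnd56, which the authors made from CEL-seq reads. The submitters' processing notes name TopHat, Cuffnorm and the mouse genome build mm9, with no role or version, and neither the collapsing of molecular identifiers nor the use of strand is stated in the sources used here. The series text speaks of 960 sorted cells, and all 714 in the table were used. No doublet caller was run. Of the values 92.3% are 0, and the closest pair of cells had a correlation of log counts of 0.585, so no cell was counted as a repeat.

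Counts were summed per age in Python 3.11.15. With 1 sample per age there was no test, no p-value and no replicate error. Levels have exact Poisson intervals, ratios have exact conditional binomial intervals, and a share of cells is a percent of cells. Against an age at 0, a ratio was taken at a floor of 3 counts and is a bound, and where both ages had 3 or fewer none was given. Such a bound takes the count of the other age as it stands, without its counting error. The 124 members and the gene lists were chosen with earlier results of these data known. Named genes were all with 100 counts or more, up to 10 in each direction of a comparison that had 20 counts over both ages, a 2-fold ratio and an interval without 1, ranked by the bound nearest to no difference, those with at least 10 counts and 50% of an age in 1 cell, the 10 with the largest share in muscle-marked pnd14 cells, and the list genes with 20 counts, of which those past 2-fold are given. Any other gene was named after its values were seen. The result of 1 member is not reported here. The sums and intervals were checked on simulated data with 200 genes set 4-fold apart. Alternatives were a gate of 3 or 10 counts, the muscle-marked cells left out, median-of-ratios scaling, cells thinned to 1500 counts, each run left out, a minimum of 50 counts or none, and each gene without its largest cell.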

Additional observations from a re-analysis of the deposited data

How the results depend on the processing

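No paired analysis was possible because each age is 1 sample and no number in the labels pairs ages. The summed member level kept its direction under the alternatives, except at pnd56 over pnd28 without the muscle-marked cells, where it was 0.00. For pnd14 over pnd7 its log2 ratio of 0.43 was 0.20 without the muscle-marked cells, 0.53 with median-of-ratios scaling and 0.33 to 0.49 with a run left out, lowest without run 7. For pnd28 over pnd14 it was 0.80, and 1.01 with that scaling, 0.92 at equal depth and 0.74 to 0.91 with a run left out. For pnd56 over pnd28 it was −0.10, and −0.24 at equal depth and −0.39 without the cell with the most member counts of each age. For muscle-marked over other pnd14 cells it was 0.82, and 1.09 with a gate of 10 counts and 0.71 to 1.10 with a run left out.

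Counts of members past 2-fold moved more. At pnd7 over pnd0, 4 were higher, against 1 at equal depth, 0 with a minimum of 50 counts, 15 with none and 2 (without run 5) to 7 (without run 2) with a run left out. There 6 were lower, against 2 at equal depth, 2 with 50 counts, 11 with no minimum and 4 to 8 with a run left out. At pnd14 over pnd7, 11 were higher, against 7 without the muscle-marked cells, 5 at equal depth, 6 with 50 counts, 25 with no minimum and 8 to 13 with a run left out. There 5 were lower, against 2 at equal depth, 0 with 50 counts, 14 with no minimum, 3 without the largest cell of each gene and 1 (without run 10) to 7 with a run left out. At pnd28 over pnd14, 10 were higher, against 25 with no minimum, 6 without the largest cells and 9 to 10 with a run left out. There 4 were lower, against 2 at equal depth, 1 with 50 counts and 2 (without run 7) to 6 with a run left out. At pnd56 over pnd28, 5 were higher, against 1 at equal depth, 3 with 50 counts and 12 with no minimum, and 3 were lower, against 5 at equal depth, 10 with no minimum and 6 without the largest cells. Between muscle-marked and other pnd14 cells 11 were higher, against 3 (without run 3) to 10, and 2 lower, against 2 to 3, with a run left out, an alternative added after the data were seen. The number of measured members moves with the minimum, the thinning and the cells left out.

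Of the single members and role sums under these settings, 1135 values stayed within the counting interval of the value reported, 99 moved out of it and 5 reversed. At pnd7 over pnd0 the log2 ratio of the summed fibrillar collagens was 2.24 at equal depth, and with a run left out it lay between −0.24, a reversal without run 10, and 1.73 without run 5. It reversed to −1.20 at pnd56 over pnd28 without the largest cell. At pnd56 over pnd28, Col1a1, Col1a2 and Col3a1 reversed to −0.10, −2.42 and −1.42 without the cell of their largest count. The settings of the partner genes and the runs of the muscle comparison were likewise added after the data were seen. There 23 values moved out of the interval of the value reported. The cause of the other moves was not tested. The depth of pnd28 and pnd56, 96248 and 81894 counts, sets the limit: a gene at 0 there may have a level of up to 31.2 or 36.6 CPM.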
